A study of Mus musculus with 42 samples.

Results

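RNA polymerase II (Pol II) was mapped in wild type (WT) mouse bone marrow-derived macrophages (BMDM) before and after 1 h of lipopolysaccharide (LPS), and the genes that gained or lost it are described here. The comparison rests on 6 of the 42 libraries of the series, which are 3 WT libraries at 1 h and 3 at 0 h, chosen by their titles. LPS is the cell wall component of gram-negative bacteria that macrophages sense through Toll-like receptor 4. Chromatin immunoprecipitation with sequencing (ChIP-seq) of Pol II counts DNA fragments (tags) bound by the polymerase, so a gene's value reflects how much Pol II sits on it and not how much RNA it has made.

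BMDM were grown for 7 days in L929-conditioned medium from bone marrow of male mice of strain C57Bl6/J aged 6 to 12 weeks, and were left untreated or given 100 ng/ml LPS. WT mice were littermates of the Nur77-KO mice, in which the nuclear receptor gene Nr4a1 was deleted in the whole body with a Cre under the CMV promoter that was later bred out. The KO label gives only Cre as genotype. KO libraries of Pol II (3 at 0 h and 3 at 1 h) and WT libraries of H3K27ac, the acetylation of a lysine of histone H3 found at promoters and enhancers in use, serve only to set WT Pol II values beside a second set of libraries. The labels do not say whether libraries of a group came from separate mice or cultures, though the article calls the replicates biological, so p-values measure the spread between these libraries. The Pol II antibody has one catalogue number in the labels and another in the article, and the form of Pol II it binds was not given in the sources used here.

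Transcription of a gene runs through recruitment of Pol II to the promoter, a pause shortly after the start, release into the gene body and termination past the end. LPS is known to switch on genes for cytokines, chemokines and interferon-induced proteins through NF-kB, AP-1 and IRF transcription factors, in waves that differ in their need for new protein. Resting BMDM are known for genes of phagocytosis, lipid handling and lysosomes, many of which depend on PU.1, MITF/TFE factors, PPARγ and LXR.

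The value of a gene is its normalized tags, the tags per 10 M tags of the library (M, mega) that fell into called Pol II regions from 500 bp before the gene's start to 500 bp past its end. Of 21884 protein-coding genes, 13229 were found in at least 2 of the 3 libraries of either time and were tested with limma on log2(normalized tags + 10). Calls required an absolute log2 change over 1 and a p under 0.05 after Benjamini-Hochberg adjustment. All log2 changes below are on this scale, which understates the change of low genes, and values after ± are SD over 3 libraries unless marked SE. A value of 0 means that no region was called there in that library, not that no tag was read.

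At 0 h the libraries held 26.1 to 36.1 M tags and at 1 h 21.7 to 29.01 M. Fewer Pol II regions were called at 1 h. There were 57126 ± 793 regions at 0 h and 38853 ± 1007 at 1 h, and their summed length went from 188 ± 8.13 to 151 ± 6.42 Mb, while the share of tags in regions went from 68.1% ± 5.59 to 76.9% ± 1.40. Each of these had an exact two-sided permutation p of 0.1, the smallest that 3 against 3 libraries allow. With 1 density floor for all libraries, 35390 to 47586 regions were left at 0 h and 31588 to 38032 at 1 h, which overlap (exact permutation p = 0.2), while p stayed 0.1 for the length and the share of tags. Nr4a1, the gene knocked out, had 188 to 208 normalized tags in WT and 70.2 to 87.8 in KO at 0 h, and 23.0 to 30.4 in WT and 33.5 to 39.0 in KO at 1 h, so its Pol II signal was lower in KO at 0 h and not at 1 h. Of 8 genes that define macrophages none was at 0 in all 6 WT libraries. The 29 markers of other cells covered T, B, NK, dendritic and mast cells, neutrophils, fibroblasts, endothelium, progenitors and erythroid cells. Of these 16 were at 0 in all 6 WT libraries, among them Cd3e, Ncr1, Elane, Ly6g, Col1a1 and Gata1. The rest, such as Cd3d, Cd4, Flt3, Zbtb46 and Pecam1, had signal in at least 1 library, with no mean over the 6 above 180.2. The summed level of these 29 markers was 567 to 718 normalized tags at 0 h and 259 to 313 at 1 h. For the 8 macrophage genes it was 21777 to 25678 and 33111 to 35063. Of the 29 markers 11 were tested and 7 called lower (63.6%). Of the 8 macrophage genes 2 were called higher (25%) and 4 lower (50%). Of all genes tested 10.3% were called higher and 43.3% lower. The part of cell mixture in the results was not tested.

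After 1 h of LPS, 1365 genes had more Pol II and 5733 had less. That is 10.3% and 43.3% of the genes tested, and 6131 genes were not called. The log2 change had a median of -0.82 over all genes tested, below 0. By more than 3 on the log2 scale, 300 genes rose and 636 fell. Values of the 2 times did not overlap for 7073 of the 7098 genes called, a count that largely follows from the thresholds of the call.

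The tags moved with the calls. Summed over the genes called higher, mean normalized tags went from 682506 at 0 h to 3167120 at 1 h per 10 M tags, and over the genes called lower from 2121990 to 493231. Over the genes not called the sum was 2648010 and 2555140. Windows of neighbouring genes can overlap, so these sums count some tags more than once. Values per 10 M tags are shares of a library, and a general fall and a shift of tags to induced genes cannot be told apart from them. With each library centred on the median of genes found in all libraries, the median log2 change was -0.03, 2614 genes were called higher and 2502 lower, 19.8% and 18.9% of the genes tested. Counts of list members after centring are read beside these shares. With quantile normalization 2150 were called higher and 2655 lower.

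**Figure D1:**
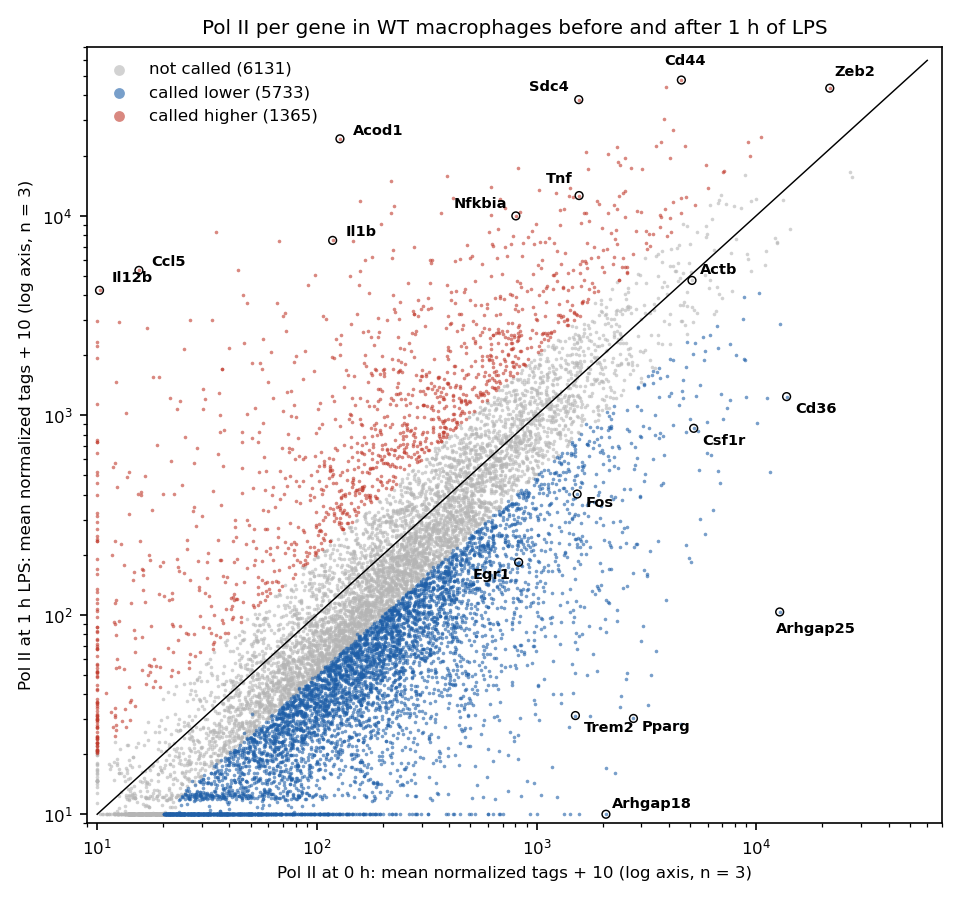
Each point is 1 of the 13229 genes tested. The x axis shows its mean normalized Pol II tags + 10 at 0 h and the y axis that at 1 h of LPS (log axes, n = 3 libraries each), with the line of equal values in black. Most genes lie below the line. Many of the genes farthest above it start from low levels, but Cd44 and Sdc4 lie well above it from means of 4550 and 1545 at 0 h.

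Genes for secreted messengers gained Pol II. Of 25 inflammatory cytokine genes tested, 19 were called higher and 1 lower, beside 10.3% and 43.3% of all genes, with a median log2 change of 3.01 against -0.82 over all genes. Il12b (chr11:44400063-44414033, mm10), which encodes a subunit of interleukins 12 and 23, had 0.232, 0.516 and 0 normalized tags in the libraries at 0 h and 4096, 4226 and 4314 at 1 h, a log2 change of 8.69 (SE 0.10, adjusted p = 1.45e-20). Few or no tags in called regions thus lay on Il12b before LPS, and called regions covered 100.0% of it at 1 h. Il1b (chr2:129364570-129371139), encoding interleukin 1β, had 109.7, 103 and 112 normalized tags at 0 h and 7297, 7538 and 7675 at 1 h, a 69.5-fold rise of the mean. The gene of interleukin 1α, Il1a, rose from 24.6 ± 9.98 to 8285 ± 336 (log2 change 7.94, SE 0.13) in a region that at 1 h also touched Ckap2l.

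Tnf (chr17:35199381-35202007), the gene of tumour necrosis factor, differed from Il12b in that called Pol II regions already covered it before LPS. These regions also touched 2 other genes at each time (Lta and Ltb at 1 h), and their tags were shared out by length. Its values were 1477, 1602 and 1574 at 0 h and 12049.5, 12953 and 12786 at 1 h, a rise of 8.12-fold (log2 change 3.01, SE 0.09, adjusted p = 3.66e-15). The libraries at 1 h lay far above those at 0 h with little spread in either group. A second set of genes had no called Pol II region in any library at 0 h: Il6 had 376, 397 and 390.4 normalized tags at 1 h, Csf2, which encodes GM-CSF, had 299.9, 291 and 316, Lif had 276, 293 and 272 and Ifnb1, the gene of interferon β, had 161, 259 and 256. Tnfsf4, the gene of OX40 ligand, reached 2209 ± 54.2 from 0. No fold is given against a group at 0. Il10, an anti-inflammatory cytokine, rose less, from 92.2 ± 9.05 to 252 ± 29.9 (log2 change 1.36), and Csf1 and Edn1 rose by 3.01 and 5.56 on the log2 scale. Il12a stayed near the lowest level that was called, with a mean of 4.18 at 1 h, and Csf3 had 9.54 at 0 h and was listed at 0 at 1 h. The 1 cytokine gene that fell was Vegfa, an angiogenic factor, with 1792, 2037 and 1936 at 0 h and 126, 96.6 and 146 at 1 h (log2 change -3.88, SE 0.10). Regions that overlap one called in input chromatin, which had no antibody, were also left out. Vegfa then had 1.20, and the median of the 6 cytokine genes left was -0.15.

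All 16 chemokine genes tested were called higher, beside 10.3% of all genes (median log2 change 2.79), while Cxcl5 and Cxcl11 were not tested for lack of called regions. Ccl5 (chr11:83525778-83530518), which attracts T cells and monocytes, had 7.61, 8.87 and 0 normalized tags at 0 h and 5017, 5454 and 5446 at 1 h, a log2 change of 8.48 (SE 0.16). At 1 h its region ran on into Heatr9, a neighbouring gene that had 0 normalized tags at 0 h and 2952 ± 178 at 1 h with 36.2% of its length covered, so the value of Heatr9 cannot be told apart from that of Ccl5. The neutrophil attractant genes Cxcl1 and Cxcl2, in 1 joint region at 1 h, rose from 16.4 ± 8.85 to 3001 ± 193 and from 267 ± 7.83 to 3202 ± 206. Cxcl10 (chr5:92346638-92348889), an interferon-inducible chemokine, had 48.3, 51.2 and 55.9 at 0 h and 1559.5, 2252 and 2395 at 1 h (log2 change 5.05, SE 0.27). Ccl3 and Ccl4 lie side by side in 1 called region, whose tags were shared out by length, and had log2 changes of 2.86 and 2.86. Ccl22 went from 0 to 739 ± 22.5, and Ccl2 rose 4.198-fold. The smallest chemokine gains were those of Ccl6 (2372 ± 63.1 to 4763 ± 149) and Ccl9 (2568 ± 68.3 to 5156 ± 162), neighbours in 1 region at 1 h, with log2 changes of 1.00 and 1.00 at the threshold.

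Genes of the NF-kB pathway gained Pol II as well. NF-kB dimers are held in the cytoplasm by IκB proteins until a signal degrades these, and the dimers then induce the genes of several of their own subunits and inhibitors. Of 20 genes of this list, 17 were called higher and 0 lower, beside 10.3% and 43.3% of all genes (median log2 change 2.67, but -1.503 over the 5 left without regions that overlap an input region). Among the subunits Rel rose by 2.50, Nfkb2 by 2.60, Relb by 2.14 and Nfkb1 by 3.29 on the log2 scale (Relb and Nfkb1 turned to -1.503 and -2.97 without regions that overlap an input region), whereas Rela had 643 ± 68.5 at 0 h and 757 ± 33.5 at 1 h and was not called. The inhibitor gene Nfkbia (chr12:55489410-55492647), which encodes IκBα, had 725, 848 and 810.5 normalized tags at 0 h and 9738, 10295 and 9842 at 1 h, a 12.5-fold rise (log2 change 3.63, SE 0.07, adjusted p = 2.34e-18). Tnfaip3 (chr10:19000910-19015657), which encodes the ubiquitin-editing inhibitor A20, had 1847, 2279 and 2188 at 0 h and 20452, 20303 and 20174 at 1 h. Nfkbiz, the gene of the nuclear regulator IκBζ, rose from 612 ± 57.2 to 13878 ± 379, Traf1, a signalling adaptor, from 60.1 ± 9.39 to 3117 ± 34.8, Icam1, an adhesion molecule in 1 region with Icam4, Icam5 and Mrpl4, from 669 ± 65.4 to 12112 ± 983 and Cflar, which blocks caspase-8, from 2398 ± 183 to 17855 ± 408.

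The promoters of induced genes were compared in RefSeq windows of 250 bases before to 50 after the start (GRCm38.p6), which were found for 10284 of the 13229 genes tested. Motifs were searched on both strands. The NF-kB motif was present in 12.3% of the 236 matched promoters of genes that rose by over 3 on the log2 scale, in 8.56% of all called higher, in 4.10% of those called lower, in 4.98% of those of all tested genes and in 4.79% of all 16504 matched promoters. The core of the interferon-stimulated response element (ISRE, searched as GAAA, any 2 bases and GAAA) was present in 8.90%, 6.99%, 2.37%, 3.26% and 3.47% of the same groups. The AP-1 motif (TGANTCA) was present in 11.4%, 7.64%, 4.85%, 5.08% and 6.99%. These shares are descriptions of a short window without a test, and a match is not a bound site. The E-box of MITF and TFEB (CACGTG) was present in 9.53% of promoters called lower and 9.20% of those called higher, against 9.87% of those of tested genes and 8.07% of all.

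6 promoters are shown, with capitals only for the matches named here for each gene. The first 3 hold NF-kB matches in genes with a high (Nfkbia), a middle (Cxcl2) and no called (Ifnb1) level of Pol II at 0 h. In Cxcl2 the capitals are 2 matches that overlap. Cxcl10 holds 2 NF-kB matches and 1 ISRE core in capitals and 1 AP-1 match left in lower case, Ifit1 has 2 ISRE cores on the opposite strand, and Ctsd, whose Pol II fell, has 2 E-boxes.
Nfkbia, chr12:55492598-55492897, minus strand: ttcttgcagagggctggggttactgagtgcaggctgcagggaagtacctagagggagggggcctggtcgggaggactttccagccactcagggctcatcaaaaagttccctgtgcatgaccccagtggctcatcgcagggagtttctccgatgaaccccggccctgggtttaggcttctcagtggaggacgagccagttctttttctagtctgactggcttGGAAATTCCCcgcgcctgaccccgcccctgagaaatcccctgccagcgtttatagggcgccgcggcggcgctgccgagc
Cxcl2, chr5:90903649-90903948, plus strand: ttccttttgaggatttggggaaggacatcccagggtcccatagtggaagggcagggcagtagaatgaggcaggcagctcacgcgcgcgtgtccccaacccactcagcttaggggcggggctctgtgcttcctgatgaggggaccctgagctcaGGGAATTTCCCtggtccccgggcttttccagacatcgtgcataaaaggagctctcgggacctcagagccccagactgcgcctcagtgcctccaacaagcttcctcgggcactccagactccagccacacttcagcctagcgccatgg
Ifnb1, chr4:88522745-88523044, minus strand: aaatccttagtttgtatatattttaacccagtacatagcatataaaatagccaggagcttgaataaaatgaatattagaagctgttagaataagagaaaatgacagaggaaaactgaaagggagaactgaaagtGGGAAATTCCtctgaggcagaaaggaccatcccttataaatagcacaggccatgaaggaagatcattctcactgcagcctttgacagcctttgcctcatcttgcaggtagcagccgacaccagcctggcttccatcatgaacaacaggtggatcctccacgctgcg
Cxcl10, chr5:92348840-92349139, minus strand: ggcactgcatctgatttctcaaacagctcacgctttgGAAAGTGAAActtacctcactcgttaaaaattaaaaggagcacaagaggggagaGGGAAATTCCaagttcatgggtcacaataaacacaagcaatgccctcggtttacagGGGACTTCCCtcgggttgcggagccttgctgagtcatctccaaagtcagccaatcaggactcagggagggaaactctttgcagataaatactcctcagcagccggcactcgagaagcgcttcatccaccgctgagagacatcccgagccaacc
Ifit1, chr19:34640639-34640938, plus strand: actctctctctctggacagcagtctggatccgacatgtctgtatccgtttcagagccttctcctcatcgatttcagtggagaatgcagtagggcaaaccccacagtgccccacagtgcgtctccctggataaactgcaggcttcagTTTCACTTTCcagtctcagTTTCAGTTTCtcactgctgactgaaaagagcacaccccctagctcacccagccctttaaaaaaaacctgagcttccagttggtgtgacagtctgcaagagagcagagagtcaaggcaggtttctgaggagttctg
Ctsd, chr7:142387778-142388077, minus strand: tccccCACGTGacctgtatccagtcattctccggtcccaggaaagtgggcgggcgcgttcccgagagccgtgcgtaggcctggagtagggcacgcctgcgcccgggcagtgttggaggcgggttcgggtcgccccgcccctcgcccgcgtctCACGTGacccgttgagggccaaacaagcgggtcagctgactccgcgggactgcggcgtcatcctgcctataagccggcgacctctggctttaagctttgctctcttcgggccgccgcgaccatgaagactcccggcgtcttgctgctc

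Genes of the interferon response rose within the same hour. Of 24 genes, 22 were called higher and 0 lower, beside 10.3% and 43.3% of all genes (median log2 change 2.11, but -2.06 over the 7 left without regions that overlap an input region). Rsad2 (chr12:26442746-26456452), which encodes the antiviral enzyme viperin, had 367, 387 and 386 normalized tags at 0 h and 16721, 16868 and 13990.3 at 1 h (log2 change 5.34, SE 0.12). Ifih1, the RNA sensor MDA5, rose 71.9-fold from 208 ± 28.9 to 14958 ± 241, and the guanylate-binding protein gene Gbp5 rose from 57.4 ± 8.80 to 7488 ± 164. Gbp5 and Gbp7 shared a region at 1 h, where Gbp7 had 5306 ± 116. Ifit1 rose from 45.0 ± 1.72 to 1814 ± 83.8, Irf1, a transcription factor, by 3.13 and Mx1 by 3.16 on the log2 scale. At 18 h, in 3 further WT libraries, Mx1 had a mean of 16674, Rsad2 of 21029 and Irf1 of 3023 normalized tags, beside means of 4702, 15859.8 and 8341 at 1 h.

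Inducible enzymes and surface proteins included the largest gains in tags named here. Of 27 such genes 21 were called higher and 3 lower, beside 10.3% and 43.3% of all genes (median log2 change 3.21). Acod1 (chr14:103046977-103056573), whose enzyme makes itaconate, had 121, 125 and 106 at 0 h and 23307, 24770.5 and 24680.4 at 1 h, a 207-fold rise (log2 change 7.58, SE 0.28, adjusted p = 3.28e-14). Cd44 (chr2:102811141-102901665), a receptor for hyaluronan, had 3959, 4795 and 4895 at 0 h and 48010.1, 47369 and 48045 at 1 h, and no other gene named here gained more tags. The heparan sulfate proteoglycan gene Sdc4 rose 24.7-fold to 38128 ± 1509 and Rasgef1b, a guanine nucleotide exchange factor, 11.3-fold to 43994 ± 978. Tnfaip2 rose from 1661 ± 112 to 20865 ± 903 and Sod2, the mitochondrial superoxide dismutase, from 316 ± 12.6 to 5951 ± 112. Ptgs2, which encodes cyclooxygenase 2, went from 20.5 ± 9.72 to 1342 ± 34.0, the costimulatory receptor gene Cd40 from 135 ± 26.97 to 7421 ± 251, the scavenger receptor gene Olr1 from 2.24 ± 3.87 to 1455 ± 38.3 and the arginine transporter gene Slc7a2 from 2.58 ± 4.47 to 2916 ± 14.4. C3, the complement component, reached 1921 ± 75.0 from 0 in a region shared with Tnfsf14. Nos2, the inducible nitric oxide synthase, was still low at 1 h with 546 ± 48.1, beside a mean of 11565 at 18 h. Hmox1, which encodes heme oxygenase 1, fell from 1412 ± 49.0 to 125 ± 27.7.

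Negative feedback genes went both ways, 13 called higher (48.1%) and 5 lower (18.5%) of 27, beside 10.3% and 43.3% of all genes, and 18 and 3 after centring. Socs3, a suppressor of cytokine signalling, had 16.3, 25.4 and 28.6 at 0 h and 2995, 2931 and 3065 at 1 h (log2 change 6.51, SE 0.13). The MAP kinase phosphatase genes split: Dusp1 rose by 2.21 and Dusp2 by 3.07, whereas Dusp6 fell from 1151 ± 131 to 81.0 ± 13.96 (log2 change -3.68). Among the genes of the tristetraprolin family, which speed the decay of mRNA, Zfp36 was called higher (909 ± 60.9 to 1898 ± 645) and Zfp36l2 lower (2012 ± 162 to 227 ± 7.34). The call of Zfp36 was lost with 50 in place of 10 added to each value, per 10 M tags in regions and with quantile normalization. Of 24 Toll-like receptor and adaptor genes 7 were called higher (29.2%) and 3 lower (12.5%), and 11 and 1 after centring. Tlr4, the LPS receptor itself, had 1622, 1982 and 1918 at 0 h and 452, 432 and 418 at 1 h (log2 change -2.05, SE 0.07), while Tlr2 rose from 179.6 ± 19.9 to 1173 ± 77.5 and the kinase gene Ripk2 from 228 ± 19.2 to 3687 ± 66.9. The adaptor gene Myd88 had 344 ± 51.0 and 389 ± 17.9 and was not called.

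**Figure D2:**
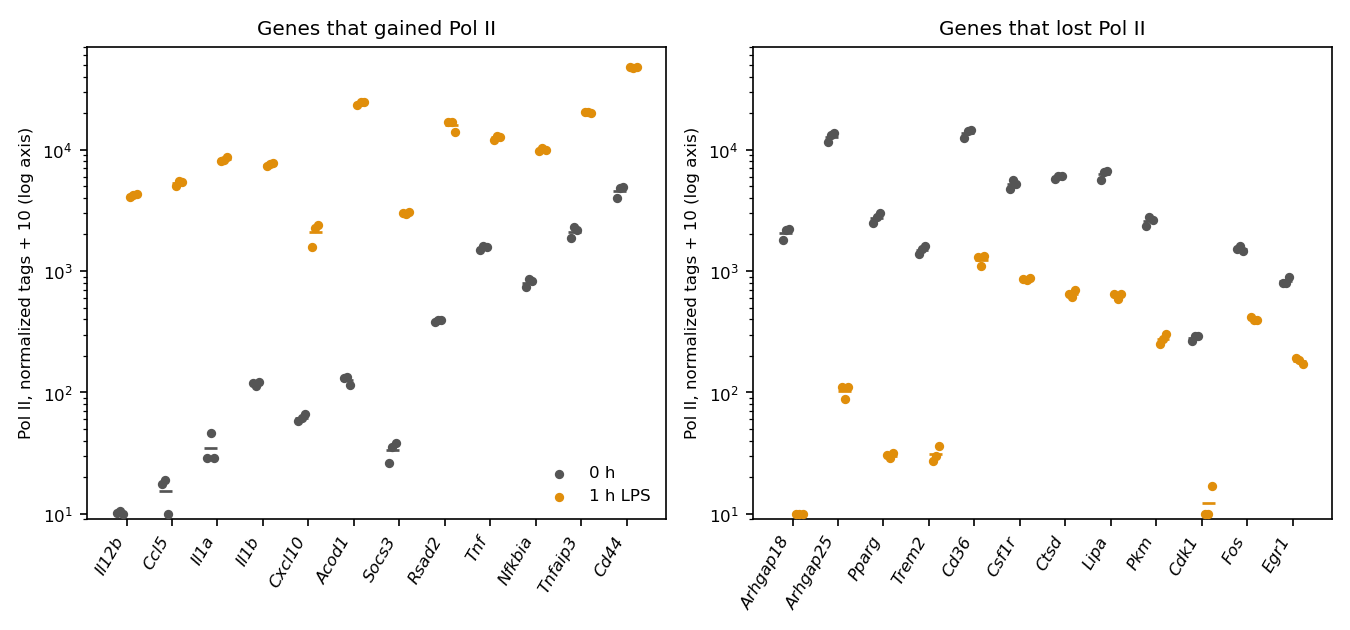
Normalized Pol II tags + 10 (log axis) of 12 genes that gained and 12 that lost Pol II. Each point is 1 WT library at 0 h (grey) or after 1 h of LPS (orange), and short lines mark means of 3. The genes were picked from those called, so the lack of overlap between the 2 times in all 24 follows in part from this choice. Il12b and Arhgap18 sit at the floor of 10 at one of the times.

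Immediate-early transcription factor genes, which growth factors and LPS are known to switch on within minutes, went both ways, with a balance that depended on scaling. Of 30, 6 were called higher (20%) and 10 lower (33.3%), beside 10.3% and 43.3% of all genes, and the median log2 change was -0.07 (0.73 after centring, with 12 higher and 7 lower). Fos (chr12:85473890-85477273), a subunit of AP-1, had 1502, 1591 and 1464 normalized tags at 0 h and 412, 382 and 384 at 1 h (log2 change -1.93, SE 0.11, adjusted p = 3.08e-11). Egr1, a zinc finger factor, had 781, 794 and 880.4 at 0 h and 184, 175 and 160.3 at 1 h. Both genes thus carried Pol II before LPS and had lower values in every library at 1 h. Jun fell from 968 ± 59.4 to 217 ± 9.22, Egr3 from 232 ± 7.79 to 8.14 ± 7.51, Nr4a1 from 195 ± 11.3 to 26.3 ± 3.74 and Myc from 1039 ± 71.7 to 512 ± 13.4, the last at the threshold (log2 change -1.01, -0.21 after centring). In the other direction Atf3 rose from 4086 ± 325 to 8227 ± 336, Klf6 from 3269.8 ± 291 to 7017 ± 187, Junb from 1038 ± 69.0 to 2327 ± 392.3 and Maff from 177 ± 7.33 to 574 ± 11.5. Of these Atf3, Klf6 and Junb lay near the threshold (log2 change 1.01, 1.10 and 1.15) and did not pass it with quantile normalization. No library was taken between 0 and 1 h.

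Several well-known genes of the resting macrophage were lower at 1 h. Of 38 lineage and surface receptor genes tested 20 were called lower (52.6%) and 5 higher (13.2%), beside 43.3% and 10.3% of all genes (median log2 change -1.56), and after centring 16 were lower and 8 higher. Cd36 (chr5:17781690-17888801), the scavenger receptor for oxidized lipoproteins, had 12424, 14331 and 14421 normalized tags at 0 h and 1285, 1083 and 1319 at 1 h, 11.2-fold lower (log2 change -3.47, SE 0.07). Trem2 (chr17:48346401-48354147), a lipid-sensing receptor, had 1365, 1519 and 1592 at 0 h and 17.4, 20.2 and 26.1 at 1 h. Csf1r (chr18:61100598-61132149), the receptor for macrophage colony-stimulating factor, had 4707, 5600.4 and 5229 at 0 h and 856, 829 and 862 at 1 h. Each of the 3 was lower in every library at 1 h. Cd163, the haemoglobin scavenger receptor, fell from 499.95 ± 53.4 to 2.09 ± 3.62, Gas6, a ligand in the clearance of dead cells, from 636 ± 51.7 to 1.95 ± 3.38, Itgam, which encodes CD11b, from 2393 ± 192 to 209 ± 19.4 and the mannose receptor gene Mrc1 from 5543 ± 409 to 1399.5 ± 76.3. Spi1, which encodes PU.1, had 3894 ± 931 at 0 h and 7886 ± 1124 at 1 h and just passed the threshold (log2 change 1.03). Adgre1, which encodes F4/80, rose from 4712 ± 512 to 22417 ± 429.7 (log2 change 2.25, SE 0.06). Lyz1 and Lyz2, which encode nearly identical lysozymes, had log2 changes of -6.92 and -1.92, uncertain where reads fit both genes.

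Of 32 lysosome genes 19 were called lower (59.4%) and 2 higher (6.25%), beside 43.3% and 10.3% of all genes (median log2 change -1.32), and 12 and 4 after centring. Ctsd (chr7:142375911-142388038), which encodes the protease cathepsin D, had 5722, 6097 and 6026 at 0 h and 631, 605 and 682 at 1 h (log2 change -3.20, SE 0.07). Lipa, the lysosomal acid lipase, had 5582, 6519 and 6596 at 0 h and 636, 582 and 639 at 1 h, and Psap, the precursor of the saposins, went from 8950.3 ± 579 to 1226 ± 55.3. The membrane protein gene Laptm5 fell from 1599.7 ± 165 to 70.3 ± 13.3 and the transcription factor gene Tfeb from 2182 ± 165 to 159 ± 22.4, while the related factor gene Mitf rose from 10544 ± 1078 to 24798 ± 446 and the cholesterol transporter gene Npc2 from 1145 ± 75.8 to 2468 ± 121, both no longer called with quantile normalization and Npc2 not per 10 M tags in regions. At 18 h Lipa had a mean of 7676, Psap of 18643 and Tfeb of 3389 normalized tags.

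Genes of lipid and energy metabolism went in both directions. Of 13 LXR and cholesterol efflux genes 4 were called lower (30.8%) and 1 higher (7.69%), both shares below the 43.3% and 10.3% of all genes, and 3 each after centring, with a median that changed sign with the scaling (-0.61, and 0.19 after centring). Scd2, a fatty acid desaturase, had 559, 642 and 678 at 0 h and 0 in all libraries at 1 h, and Rxra, the partner receptor of LXR, fell from 172 ± 25.2 to 2.29 ± 3.96, while Mylip, which degrades the LDL receptor, rose from 1280.3 ± 103 to 3108 ± 26.5 (not called with quantile normalization). Of 22 sterol synthesis and uptake genes 10 were called lower and 2 higher, beside 43.3% and 10.3% of all genes, and 6 and 3 after centring, with the synthesis gene Msmo1 at 360.1 ± 28.1 and 29.0 ± 11.9 and the regulator gene Srebf2 at 243 ± 42.4 and 635 ± 62.3. Of 17 glycolysis genes 7 were called lower (41.2%) and 3 higher (17.6%), again beside 43.3% and 10.3%, and after centring 3 were lower and 4 higher. Pkm, which encodes pyruvate kinase, had 2327, 2767 and 2616 at 0 h and 239, 267 and 294 at 1 h, and Ldha fell from 1071 ± 114 to 440.0 ± 3.84 (not called after centring, -0.46), but Pfkp rose by 2.31 on the log2 scale. Hk2 had 1.07 over the gene, which was no longer called per 10 M tags in regions or with quantile normalization, and -0.39 at its start. Of 24 genes of the respiratory chain and citric acid cycle 13 were called lower (54.2%) and 0 higher, beside 43.3% and 10.3% of all genes, and after centring 3 were lower and 5 higher.

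Of 32 DNA replication and mitosis genes 23 were called lower (71.9%) and 3 higher (9.38%), beside 43.3% and 10.3% of all genes (median log2 change -1.75), and 15 and 3 after centring. Cdk1, the mitotic kinase, had 257, 283 and 280.4 at 0 h and 0, 0 and 7.05 at 1 h (log2 change -4.57, SE 0.21). The replication helicase gene Mcm5 fell from 159 ± 32.1 to 6.05 ± 5.42. The D-type cyclins, which link growth signals to the cell cycle, went opposite ways: Ccnd1 fell from 1365 ± 62.0 to 105.3 ± 15.1 and Ccnd2 rose from 95.1 ± 9.20 to 890.3 ± 30.9. Of 32 cytosolic ribosomal protein genes 30 were not called, with a median log2 change of -0.31 (0.49 after centring). The 2 called lower were Rpl18 and Rps14, with log2 changes of -1.21 and -1.03, and neither was called after centring, when 2 others were higher. Of 8 reference genes 2 were called lower (25.0%) and 0 higher, and 1 each after centring. Actb had 5086 ± 155 and 4725 ± 115 and was not called, whereas Hprt fell from 469 ± 68.9 to 40.0 ± 12.2. Of 20 genes for actin and its regulators 3 were called in each direction (15.0% each, beside 43.3% lower and 10.3% higher of all genes, and 1 lower and 6 higher after centring), among them Lcp1, which encodes the bundling protein L-plastin (9139.8 ± 948 to 23282 ± 310.0), and Cotl1 (2317 ± 92.0 to 95.9 ± 4.22). Lcp1 was no longer called with quantile normalization.

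**Figure D3:**
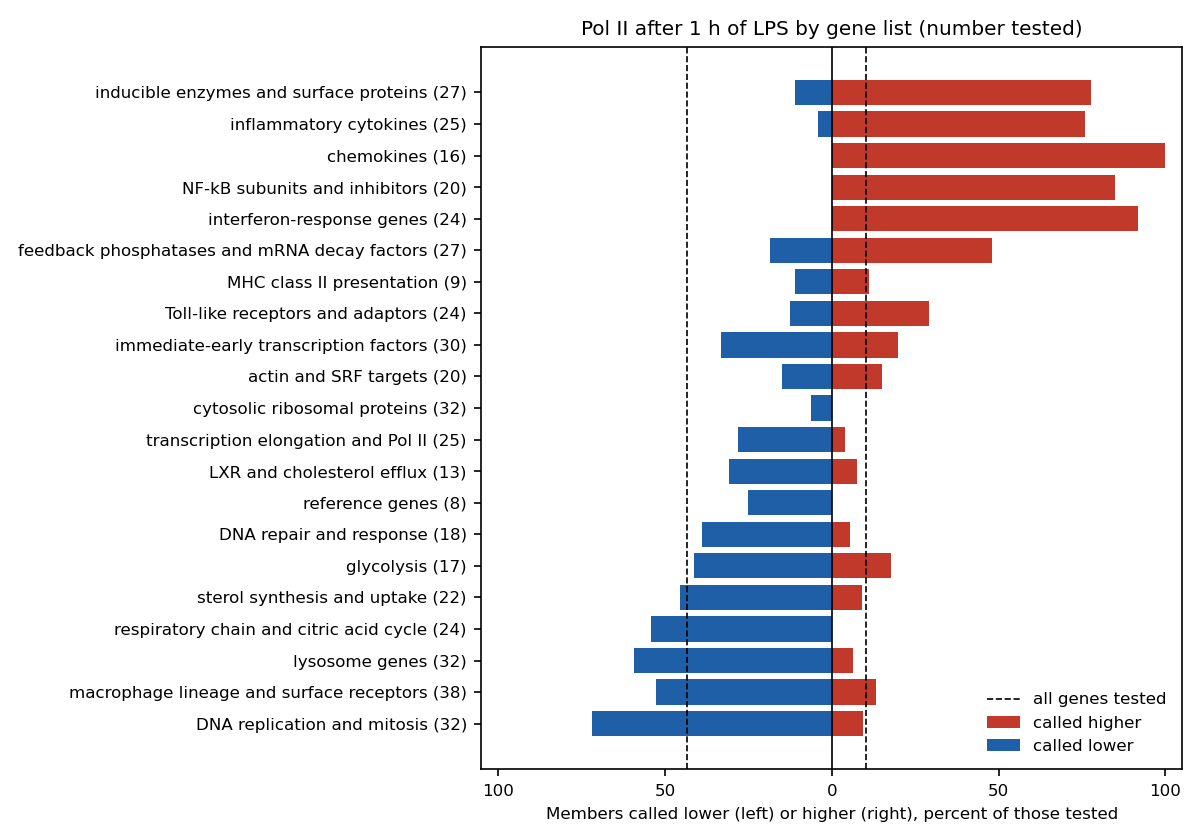
Bars give the percent of tested members of each gene list that were called higher (right) or lower (left) at 1 h, with the number tested in parentheses and lists ordered by their median log2 change. Dashed lines mark 10.3% and 43.3%, the shares among all genes tested. The 5 lists at the top have 76.0% to 100% of members called higher.

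Genes with the largest losses by the naming rule came from several functions. Arhgap25 (chr6:87458545-87533259), a Rac inhibitor of phagocytes, had 11641, 13074 and 13579.5 normalized tags at 0 h and 102, 77.5 and 100.4 at 1 h, 137-fold lower (log2 change -6.96, SE 0.08, adjusted p = 1.45e-20). Arhgap18, which acts on RhoA, had 1787, 2177 and 2211 at 0 h and no called region in any library at 1 h. The same was true of Rasgrp3, an activator of Ras (1553 ± 148 at 0 h), Treml1, a receptor of the TREM family (1409 ± 109), and Fads3, a fatty acid desaturase family member (1317 ± 126). In all, 850 genes called lower had no region in any library at 1 h, and 96 called higher had none at 0 h. Pparg (chr6:115360951-115490399), the lipid-sensing nuclear receptor, had 2481, 2783 and 2983 at 0 h and 20.3, 18.6 and 21.7 at 1 h. Slc40a1, the iron exporter ferroportin, fell from 1036 ± 75.3 to 2.53 ± 4.38, and Inpp5d, which encodes the phosphatase SHIP1, from 2378 ± 226 to 24.3 ± 14.9 with a mean of 3387 at 18 h. Large numbers of tags were also lost at Mbnl1, a splicing regulator (11522 ± 1287 to 512 ± 64.7), Dnmt3a, a DNA methyltransferase (10049.5 ± 702 to 908 ± 55.5), the guidance receptor gene Nrp1 (6831 ± 627 to 447 ± 33.5) and Apobec1, a cytidine deaminase (12861 ± 776 to 2856 ± 37.6). Zeb2, a transcription factor of myeloid cells, had many tags at both times, 21581 ± 2054 and 43506 ± 175, a log2 change of 1.02. Its call was lost per 10 M tags in regions and with quantile normalization.

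Where in the gene the change lay was followed with smaller windows. Within 500 bp of the start, 493 of 11167 genes were called higher (4.41%) and 1698 lower (15.2%), with a median log2 change of -0.32. The lower genes numbered 1090 after centring and 2797 with a pseudocount of 1. From 500 to 3000 bp past the end, 556 of 5427 genes were called higher (10.2%) and 1964 lower (36.2%). These windows hold a part of the same tags as the gene or of the region that covers it, so their calls are not independent of it. Of the genes called higher, 38.9% of 1168 tested were also called at the start and 61.2% of 787 past the end. Of those called lower it was 33.1% of 4708 and 67.1% of 2041. Pparg is an example of loss from the body with little change at the start: its start window had a log2 change of -0.35 (SE 0.12) while the called share of its 129 kb went from 99.8% to 0.655%. Nrp1 had -0.46 (SE 0.09) at the start and -3.90 over the gene.

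Of genes of 10 kb or more that had Pol II at 0 h, 39 of 1051 called higher went from under 10% to over 90% of their length covered, and 53 of 4426 called lower from over 90% to under 10%. Of those called lower, 3383 had under 10% covered at 1 h and 1762 at 0 h. Some long induced genes were covered in part at 1 h: Slco3a1, an organic anion transporter of 279 kb, on 34.9%, Diaph2, an actin nucleator of 716 kb, on 29.3% and Slc7a11, the cystine transporter whose annotated span is 551 kb, on 13.2%. A gene's annotated span can be longer than the transcript used in these cells, as for Rasgef1b with 15.7% of 512 kb covered.

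Calls were set beside gene length. Over 5 classes of length the share called higher went up at each step, from 7.50% of genes under 20 kb to 17.0% of those over 200 kb. The shares called lower were 41.9%, 43.7%, 41.1%, 49.2% and 52.7% for genes under 20 kb, of 20 to 50, 50 to 100 and 100 to 200 kb and over 200 kb, with no steady order below 100 kb. Among genes of 20 to 50 kb that were called lower, each gene was cut into 5 equal parts from its 5′ to its 3′ end. The share of the first part inside Pol II regions was 44.6% at 0 h and 19.4% at 1 h, and that of the fourth 23.4% and 5.45%. Among those called higher the first part went from 52.3% to 74.7% and the fourth from 31.4% to 65.8%. After 1 h the induced genes of 100 to 200 kb were covered about evenly from the first part (56.2%) to the last (50.1%). These shares follow the calls and are descriptions without a test.

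**Figure D4:**
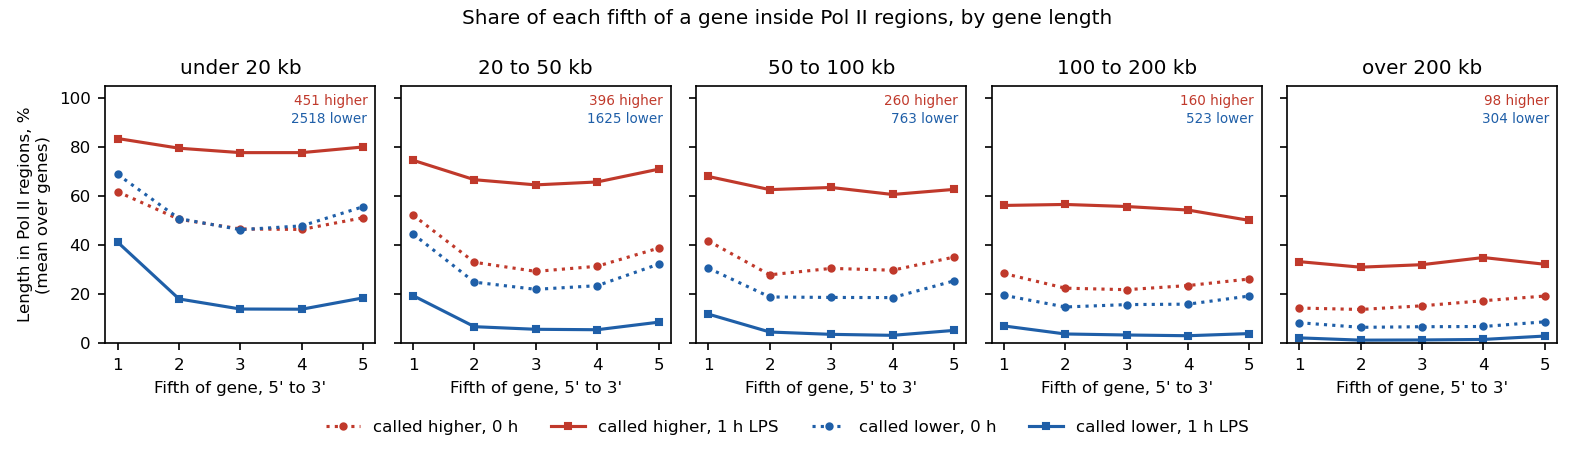
Percent of the length of each of 5 equal parts of a gene, from its 5′ to its 3′ end, that lay inside called Pol II regions (mean over 3 libraries, then over genes), in 5 classes of gene length. Red marks genes called higher and blue genes called lower, with dotted lines for 0 h and full lines for 1 h of LPS. Coverage of induced genes rises over the whole gene, and what remains at 1 h on genes called lower is highest in the first part in the 4 classes up to 200 kb.

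H3K27ac within 2500 bp of the start, from 3 other WT libraries at each time, was called higher at 968 of 11903 genes (8.13%) and lower at 1081 (9.08%). Of genes whose Pol II rose, 49.4% of 1225 tested had more H3K27ac and 0.898% less. Of genes whose Pol II fell, 17.8% of 4811 had less and 0.624% more. Ccl5 gained both, with H3K27ac of 16.4 ± 4.28 normalized tags at 0 h and 1082 ± 59.4 at 1 h (log2 change 5.38). Cxcl10 had a log2 change of 4.48 in H3K27ac and Il12b of 3.44. At Nfkbia and Cd44 the mark changed less, by 1.05 and 1.18, from 445 ± 68.6 and 336 ± 28.3 normalized tags at 0 h. Treml1 lost both (log2 change of H3K27ac -3.71), as did Trem2 (-2.43), Laptm5 (-2.07) and Arhgap25 (-1.004), whereas Pparg, called lower for Pol II, had a log2 change of -0.54 in H3K27ac and was not called for it. Opposite calls were few. Plek, a protein kinase C substrate of platelets and leukocytes, gained Pol II (3789.6 ± 353 to 30365 ± 484) with less H3K27ac at its annotated start (-1.03), where Pol II also had a log2 change of -0.60. Cx3cr1 had log2 changes of 3.22 in Pol II over the gene and -1.56 in H3K27ac at its annotated start, where Pol II was too low to be tested, and 5 other genes lay in the same regions. Scarf1, a scavenger receptor gene, had -3.24 in Pol II over the gene and 1.16 in H3K27ac, but 0.38 in Pol II at its start. Regions on Scarf1 also touched up to 6 other genes at 0 h and 1 at 1 h.

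**Figure D5:**
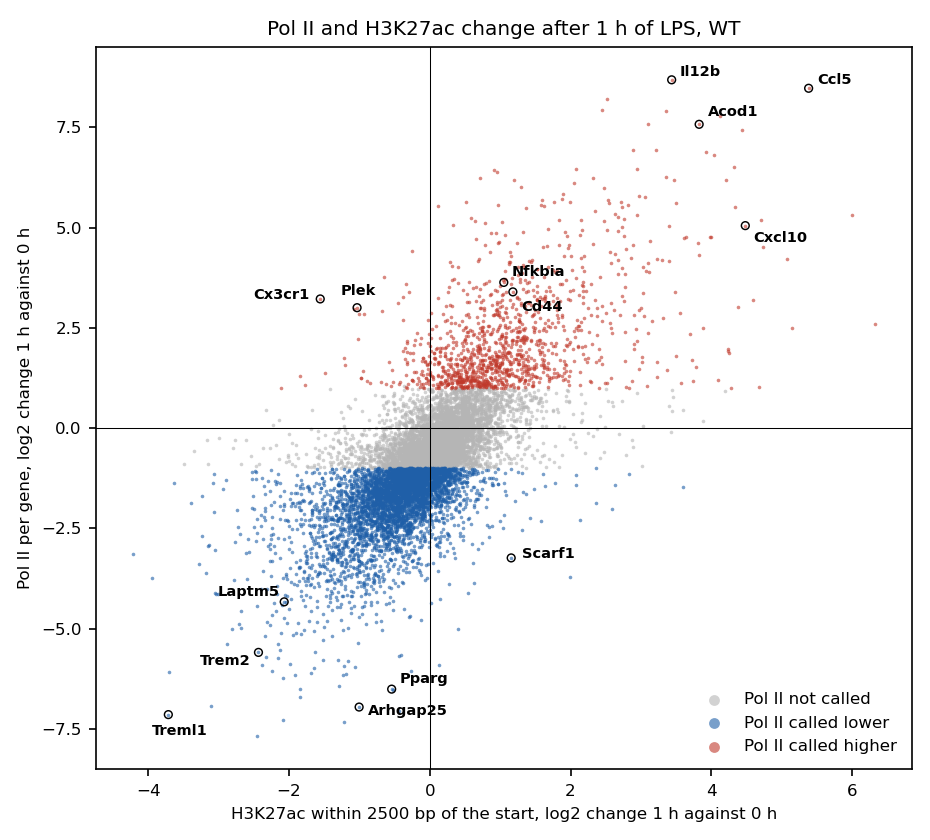
Each point is a gene tested for both marks in WT. The x axis shows the log2 change of H3K27ac within 2500 bp of the start and the y axis that of Pol II over the gene, both at 1 h against 0 h (3 libraries per group and antibody). Ccl5 and Il12b lie at the upper right, Treml1 at the lower left, and few genes lie in the other quadrants far from the axes.

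The LPS change was measured again in KO macrophages, whose libraries are separate from those of WT. 1482 of 13256 genes were called higher there (11.2%) and 4659 lower (35.1%). Of the genes called higher in WT 89.5% of 1357 tested were called higher in KO and 2 lower, and of those called lower 75.5% of 5707 were called lower and 1 higher. The difference between the genotypes was tested itself, as the change in KO less the one in WT. It passed the threshold for 416 of 13415 genes upward (3.1%) and 152 downward (1.13%). Among genes called higher in WT these were 35 and 56, and among those called lower 273 and 36, a split that turned with the scaling over all genes (191 upward and 258 downward after centring). Ifi203, an interferon-inducible gene, rose from 380.0 ± 21.3 to 4499 ± 199 in WT and had 959.8 ± 144 and 1349 ± 20.5 in KO. Eya1, a transcriptional coactivator, fell from 349.8 ± 43.1 to 9.25 ± 10.52 in WT and had 12.6 ± 7.34 and 0 ± 0 in KO. For Tnf, Nfkbia, Ccl5 and Il1b the difference did not pass the threshold, with log2 changes of 2.98, 3.63, 8.65 and 6.27 in KO and differences of -0.04, -0.01, 0.18 and 0.28 (SE 0.13, 0.09, 0.23 and 0.18).

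Input chromatin, which had no antibody, also changed at induced genes. In the single WT input library of each time, 88.1% of the genes called higher had more input tags at 1 h than at 0 h, against 69.2% of genes not called and 52.3% of those called lower. At Acod1 the input went from 30.6 to 196 normalized tags, at Tnfaip3 from 71.8 to 284 and at Cd44 from 297 to 1233. Over the genes called higher the input difference was a median 5.87% of the Pol II difference, with a 95th percentile of 74.5%. At genes called lower the input at 1 h was a median 32.2% of the Pol II value at 1 h. With the input of the same time subtracted from each gene, an alternative added after seeing the data, 1275 genes were called higher and 6306 lower of 12636, and of the called genes named here that had a value Zfp36 no longer passed (Pde4d had none). Called regions are wide and join neighbours: 693 of the genes called higher and 2050 of those called lower shared a region with another gene at 1 h (3139 of the latter at 0 h), beside 3392 of 6131 genes not called, which lends each a part of the other's tags. Regions that touch any called input region held most tags. Without them 6.73% of tags were left at 0 h and 4.23% at 1 h, and the remaining values of 15 genes named here changed sign, among them Nfkb1, Relb, Cd40, Tlr4 and Mrc1.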

How the data were processed

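Pol II and H3K27ac ChIP-seq was measured in WT and KO BMDM at 0, 1 and 18 h of LPS, with 1 input library per group. Reads were trimmed (Skewer) and aligned to mm10 (HISAT2 2.1.0) by the authors, who removed duplicates and called regions in each library with HOMER, without input control or pooling of replicates, from 500 bp windows at a Poisson p of 0.001 joined when under 1000 bp apart. The value deposited by the authors for a region is a signal, its tags per 10 M tags of the library, per the file headers. Reads outside regions do not enter a gene's value, and counts per gene were not used here.

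Each region's tags were shared by overlap over mm10 protein-coding genes ± 500 bp (GENCODE release vM21, 21884 genes, mitochondrial genes and duplicate symbols left out). Log2(value + 10) was fitted with limma 3.58.1 (R 4.3.3, intensity trend) over the 18 Pol II libraries as groups of genotype and time, with Benjamini-Hochberg adjustment over all genes tested. Genes found in at least 2 of 3 libraries of either time were tested. The fit was tested on simulated data first. For values of whole libraries an exact permutation test was used (two-sided). Pearson's r of log2 values was 0.988 to 0.990 within a time across genes, which are not independent replicates.

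The genes named come from 23 gene lists and from ranks: the 15 largest log2 changes and 10 largest tag changes per direction with no overlap of values or windows, the 5 largest opposite H3K27ac calls, the 5 largest differences between genotypes and the 10 longest called genes. Not every gene so ranked is printed, and a few are not reported here. Members and lists were chosen with earlier results of these data known. Promoters came from RefSeq tables (GRCm38.p6), matched by symbol. Alternatives covered pseudocount, filter, scaling, regions, window, replicate block and leaving out each library. Counting error could not be given per gene, since deposited values are normalized.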

Additional observations from a re-analysis of the deposited data

Results flagged for a closer look

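Of the 141 genes named above or in this section, 18 had an LPS change that differed between WT and KO by a test of the difference itself (limma interaction, adjusted p under 0.05 and a difference over 1 on the log2 scale). Over all 13415 genes tested 3.1% passed upward and 1.13% downward. Ifi203, Fcrl5, Eya1 and Pde4d were named because of this difference, so the count of 18 follows in part from the choice of genes. The difference is given as the change in KO minus that in WT. Libraries of the genotypes were compared at 3 against 3 per time.

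Among induced genes the difference was 1.09 for Cxcl1, 1.15 for Cxcl10, 1.40 for Gbp5 and 1.79 for Ciita. The first 3 had lower means at 0 h in KO than in WT (11.3 ± 9.97 against 51.8 ± 3.79 for Cxcl10) and lower means at 1 h too (1423 ± 237 against 2069 ± 447). Nos2 differed by -2.38, with 84.5 ± 14.6 at 1 h in KO and 546 ± 48.1 in WT, and C3 by -1.09, with 895 ± 42.9 and 1921 ± 75.0. Ifi203 differed by -3.03 and Fcrl5, an Fc receptor-like gene, by -4.05, the latter with 144 ± 12.5 and 589 ± 328 in WT and 129 ± 6.70 and 20.4 ± 11.1 in KO. At 1 h a region of Ifi203 also touched Mndal and one of Fcrl5 also touched Etv3.

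Of genes called lower in WT the difference was upward for 273 and downward for 36, and over all genes the split turned to 191 upward and 258 downward after centring. Among the genes named it was 1.03 for Dusp6, 2.07 for Egr3, 1.58 for Nr4a1, 1.09 for Mrc1, 1.62 for Msmo1, 1.24 for Mcm5, 1.72 for Arhgap25, 2.72 for Arhgap18, 3.24 for Eya1 and 3.11 for Pde4d, which encodes a cAMP phosphodiesterase. In WT the input library held 1008 normalized tags on Pde4d at 0 h and 1407 at 1 h. These lay above its mean Pol II values of 270 and 4.29, so the Pde4d difference is uncertain. Arhgap18, which had no region at 1 h in WT, had 51.8 ± 10.3 in KO. For Eya1 and Nr4a1 the KO level was already lower at 0 h (12.6 ± 7.34 and 78.1 ± 8.96 against 349.8 ± 43.1 and 195 ± 11.3 in WT), and Nr4a1, the gene that was knocked out, had 36.4 ± 2.77 at 1 h in KO and 26.3 ± 3.74 in WT.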

How the results depend on the processing

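The limits are those of called regions: a gene's value rests on regions whose threshold moves with library depth, and low genes drop to 0. The labels number the libraries of each group alike, but deviations of same-numbered libraries correlated at only -0.024 to -0.0030. The replicate block gave 1365 higher and 5733 lower genes and changed no call of a gene named here. Leaving out 1 library gave 1288 to 1403 higher and 5544 to 6070 lower genes, at starts 459 to 516 and 1625 to 1835, past ends 535 to 573 and 1880 to 2114, for H3K27ac 944 to 990 and 1027 to 1100, in KO 1458 to 1502 and 4597 to 4735, and for the genotype difference 353 to 540 and 131 to 153, with differences at 1 h of -18850 to -17905 regions, -40.5 to -32.4 Mb and 5.6 to 10.54 percentage points of tags in regions. Each library value kept its direction. Chosen after seeing the data were the input subtraction, the alternatives of the genotype difference, and leaving out libraries for all results but the WT gene counts.

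The split of calls depended on scaling. Higher and lower genes numbered 2614 and 2502 after centring and 2150 and 2655 with quantile normalization. A pseudocount of 50 gave 3164 lower genes, windows that overlap no other 3120 (fewer genes tested), and adjusted p alone 2457 higher and 9049 lower. The window at the start gave 493 and 1698. Using only regions free of overlap with the input regions gave 904 and 3463 and changed the share of tags in regions by -2.50 percentage points in place of 8.83, since wide regions that touch any input region drop out and only 6.73% and 4.23% of tags are left at 0 and 1 h. At starts, lower genes numbered 1090 after centring and 2797 with pseudocount 1. KO gave 2395 higher and 2507 lower after centring, and the genotype difference 191 and 258. The median log2 change over all genes tested was -0.03 after centring, -0.10 with quantile normalization, -0.49 with pseudocount 50, -1.02 with pseudocount 1 and -1.02 per 10 M tags inside regions.

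Of 136 called genes named here, 83 kept direction and call under every alternative with a value. Without regions that overlap an input region the sign turned for Vegfa (1.20), Nfkb1 (-2.97), Relb (-1.503), Hmox1 (2.07), Cd40 (-0.67), Tlr4 (1.01), Ripk2 (-1.77), Mrc1 (2.66), Pkm (2.35), Hk2 (-3.22), Ccnd1 (0.91), Dnmt3a (5.15), Scarf1 (0.48), Nrp1 (1.47) and Fcrl5 (-0.50). In the window at the start it turned for Srebf2 (-0.015), Hk2 (-0.39), Plek (-0.60) and Scarf1 (0.38), and after centring Actb had 0.69. Of list medians the sign turned for immediate-early transcription factors (0.00839) with genes found in all 6 libraries, for immediate-early transcription factors (0.73), actin and SRF targets (0.69), LXR and cholesterol efflux (0.19), cytosolic ribosomal proteins (0.49), transcription elongation and Pol II (0.22) and reference genes (0.0176) after centring, for immediate-early transcription factors (0.12), sterol synthesis and uptake (0.17), cytosolic ribosomal proteins (0.0824), transcription elongation and Pol II (0.12) and DNA repair and response (0.22) with quantile normalization, for immediate-early transcription factors (0.0579), inflammatory cytokines (-0.15), NF-kB subunits and inhibitors (-1.503), feedback phosphatases and mRNA decay factors (-0.16), interferon-response genes (-2.06), actin and SRF targets (0.74), macrophage lineage and surface receptors (0.14), lysosome genes (0.0998), MHC class II presentation (-0.00686), macrophage defining markers (1.63) and other cell type markers (0.39) without regions that overlap an input region, for immediate-early transcription factors (0.0222) without WT 0 h replicate 2, for actin and SRF targets (0.0202) with windows that overlap no other. Without regions that overlap an input region, the turned medians rest on part of each list. They cover 1 macrophage marker and 4 actin, 5 NF-kB, 5 MHC class II, 5 other cell type and 6 cytokine genes. The rest cover 7 interferon-response, 8 feedback, 10 immediate-early, 13 lysosome and 17 lineage and surface receptor genes. The immediate-early median ranged from -0.11 to 0.022 over the libraries left out. The causes were not tested. Calls lost without 1 library were those of Ccl6 (without 0 h replicate 1, 0.99, 0 h replicate 3, 0.997 and 1 h replicate 3, 0.98), Ccl9 (without 0 h replicate 1, 0.99, 0 h replicate 3, 0.997 and 1 h replicate 3, 0.98), Zfp36 (without 0 h replicate 1, 0.95 and 1 h replicate 2, 0.74), Myc (without 0 h replicate 2, -0.99, 0 h replicate 3, -0.97 and 1 h replicate 2, -0.99), Atf3 (without 0 h replicate 1, 0.94 and 1 h replicate 3, 0.98), Spi1 (without 0 h replicate 1, 0.91, 0 h replicate 2, 0.96, 1 h replicate 1, 0.98 and 1 h replicate 2, 0.96), Zeb2 (without 0 h replicate 1, 0.93) and Rps14 (without 0 h replicate 3, -0.96), all with a log2 change near 1 or -1.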

Other observations

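Of 9 genes of MHC class II presentation 1 was called higher and 1 lower (11.1% each, beside 10.3% and 43.3% of all genes, median log2 change 0.42, and 1.22 after centring with 6 higher and 0 lower). The one called higher was Ciita, the master regulator of these genes, which went from 35.7 ± 8.90 to 724 ± 50.4 normalized tags (log2 change 4.02, SE 0.22).

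Of 25 genes of Pol II and its elongation factors 7 were called lower (28.0%, beside 43.3% of all genes) and 1 higher (median log2 change -0.58, and 0.22 after centring with 6 higher and 4 lower). A pair of related elongation factor genes went opposite ways: Ell fell from 880.4 ± 129 to 71.7 ± 12.0 and Ell2 rose from 3812 ± 382 to 10809.9 ± 274. Ell2 was no longer called with quantile normalization, nor Ell in the window at the start. Of 18 DNA repair and response genes 7 were called lower (38.9%) and 1 higher, beside 43.3% and 10.3% of all genes, and 6 and 6 after centring (median log2 change -0.80, against -0.82 over all genes). Parp1, which marks DNA breaks with poly(ADP-ribose), fell from 290.4 ± 12.0 to 22.8 ± 3.53.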
